A study of Mus musculus with 4 samples.

Results

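G2/M and mitosis genes were examined cell by cell in mouse haematopoietic stem cells (HSCs). A list of 52 genes that act from G2 to the end of cell division was taken as given, and 51 of them have a row among the 13742 genes of the count table. Nek2 was not analysed here. The members were chosen with earlier results of these data known. The cells came from the bone marrow of wild-type mice aged 8 weeks and carried the ESLAM SK phenotype: Lin-, Kit+, Sca1+, CD150+, CD48- and EPCR+ (EPCR is CD201). The study sorted CD27- and CD27+ cells, but each of its 4 libraries mixes both gates and no source used here gives the gate of a cell. The libraries therefore form 1 group (n = 4) with no treatment and no control, and no comparison of the gates was made. No label ties a library to its own mouse, so an SD over libraries may be technical.

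A dividing cell accumulates these transcripts in late S phase and G2. CDK1 with a B-type cyclin starts mitosis, Aurora and checkpoint kinases attach chromosomes to the spindle, condensin and topoisomerase II alpha shape the chromosomes, and the anaphase-promoting complex ends mitosis. Long-term HSCs of an adult mouse are known for being mostly quiescent. Some proteins of the list also have work outside division, among them a beta-tubulin and several chromatin proteins.

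Cells with at least 10000 counts and at least 1000 genes were kept, 292 of 297, or 74, 75, 71 and 72 in libraries 1 to 4. Kept cells held 10653 to 346876 counts, with library medians of 93024, 99569, 65416 and 142675. Library 3 was the shallowest and library 4 the deepest. Detection of stem cell genes was uneven among the 285 cells described below as the other cells. Mecom had a count in 94.7%, Mllt3 in 91.6% and Procr in 76.1%, but Slamf1 in 26.0% and Fgd5 in 20.7%. Myeloid genes were uneven too. Elane, of neutrophil precursors, had a count in 0.351% and Mpo in 2.11%, but Prtn3 in 87.7%. A pair of runs of consecutively numbered cells, cells 25 to 32 of library 2 and cells 10 to 16 of library 4, stood apart from the rest of their libraries. The 15 kept cells of these runs had a median of 4 members with a count, against 8 in the remaining cells.

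Cells rich in division transcripts were found with genes outside the list, 51 other division genes that include Ccna2, Ccnb1 and Plk1. In 7 of 292 cells, 12 to 39 of these genes had at least 3 counts, and in the other 285 cells at most 6 had. The line was drawn at 10 genes after this gap was seen, and the 7 are called division-rich cells here. They made up 2.40% of kept cells (exact Clopper-Pearson 95% interval 0.969 to 4.88, counting error only). Library 3 held 5 of them, 7.04% of its cells (interval 2.33 to 15.7), and libraries 1 and 4 held 1 each. Library 2 held 0 of 75, with an exact upper bound of 4.80%, and 3 counts of that total, the limit used here for a count of 0, are 4.00%. None of the 7 lies in the runs of cells that stood apart.

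The 7 cells contained most of the list and the other cells contained little of it. Division-rich cells had a count for 25 to 49 of the 51 members, with a median of 37. The other cells had 1 to 17, with a median of 8, so the ranges did not overlap. Depth moved with this difference: the median total was 182570 counts in the division-rich cells and 93914 in the others. The number of all genes detected moved with it too, with medians of 4275 and 2926. There the ranges did overlap, with 37 other cells above the lowest of the 7. The part of this breadth in the member numbers was not tested. With every cell thinned at random to 30000 counts, which left out 16 shallower cells, the 7 cells had 25 to 47 members (median 31) and the others at most 14 (median 6). The 7 cells held 4.30% of all counts and 25.1% of all counts of members. Each of the 51 members had more than 4.30% of its counts in them, but G2e3 (5.19%) and Gas2l3 (5.35%) only just. How many of all genes lie above that line was not counted, so it sets no member apart. Since cells that share division genes were picked by such genes, these values are a description with no test.

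Members differed widely in how many cells held them. Of the 51, 29 were narrow, with a count in under 10% of kept cells, 18 lay between, and 4 were broad, with a count in at least 50%. Among all 13726 genes with a count, 43.6% were found in under 10% of cells and 12.6% in at least 50%, so 56.9% and 7.84% of members stand beside those shares. The narrow members had counts in 2 to 27 cells, and their median share of counts in the 7 cells was 56.9%. The 18 members between had a median share of 15.2%, and the 4 broad members ranged from 9.40% to 27.9%. In all, 19 members (37.3%) had at least 50% of their counts in the 7 cells, against 2.03% of all genes. Among narrow genes only, these were 18 of 29 members (62.1%) against 4.59% of all narrow genes.

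**Figure D1:**
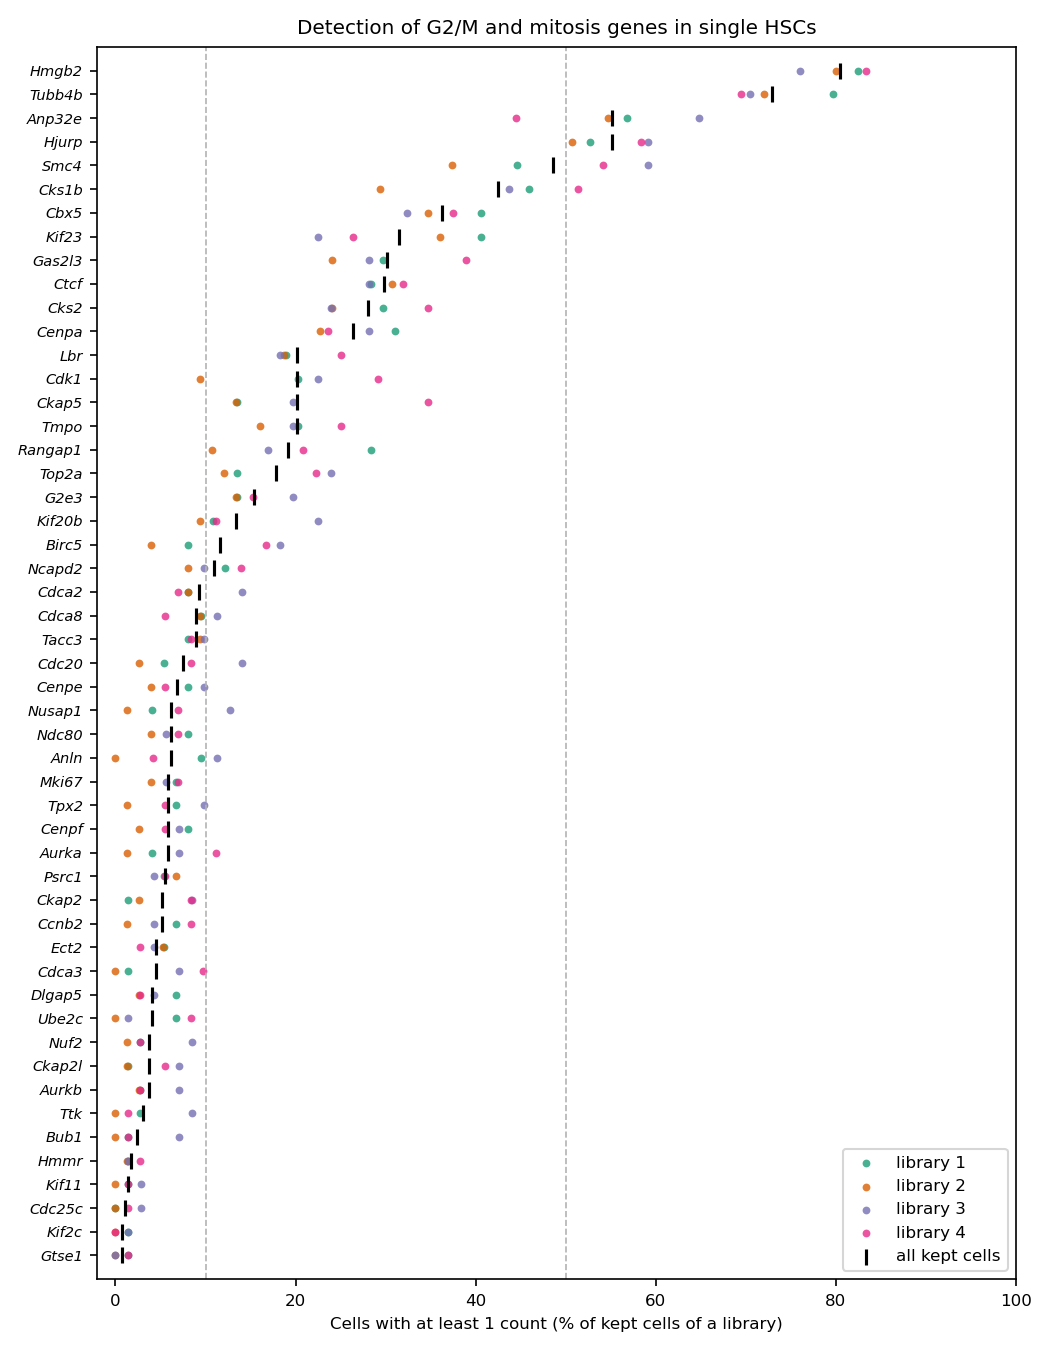
Share of kept cells with at least 1 count, on the x axis in percent, for each of the 51 genes (rows); dots are the 4 libraries, bars all 292 cells, dashed lines 10% and 50%. Hmgb2, Tubb4b, Anp32e and Hjurp lie above 50% over all cells, and 29 genes lie below 10%.

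**Figure D2:**
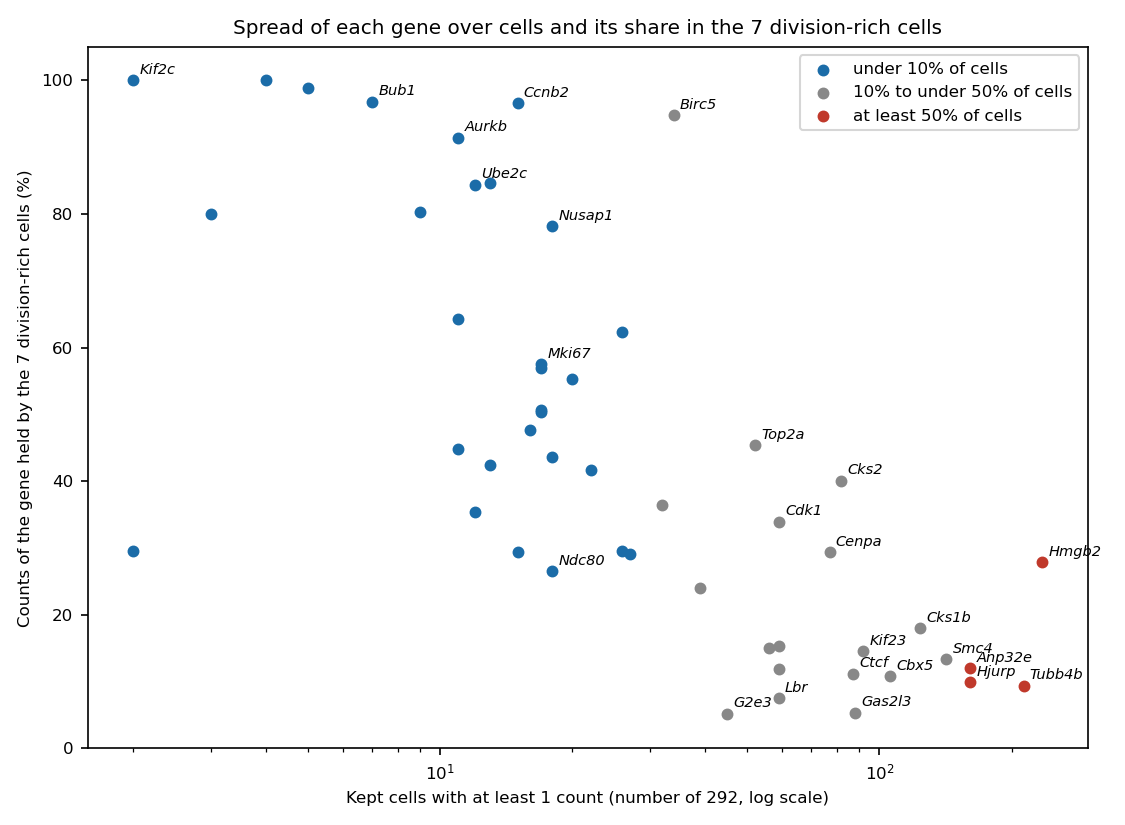
Number of kept cells with a count (x axis, log scale) against the percent of the gene's counts held by the 7 division-rich cells (y axis), 1 point per gene, coloured by the share of cells. Birc5 stands apart at 34 cells and 94.8%, while Ncapd2 and Kif20b, in 32 and 39 cells, lie at 36.5% and 24%.

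Mitotic kinases and their partners were the most concentrated. The 7 genes of this role had a median of 80.3% of their counts in the 7 cells, and 6 of them were narrow. Aurkb, which encodes Aurora B of the chromosomal passenger complex, had a count in 2, 2, 5 and 2 cells of libraries 1 to 4, with 24.7, 0.247, 27.2 and 10.3 CPM (counts scaled to the same total in each library, from its kept cells summed). Division-rich cells held 91.4% of its counts. Bub1, a checkpoint kinase, was found in 1, 0, 5 and 1 cells at 1.48, 0, 9.71 and 0.0892 CPM, with 96.8% of counts in the 7 cells. Ttk, the checkpoint kinase MPS1, was found in 2, 0, 6 and 1 cells at 4.18, 0, 21.0 and 0.0892 CPM. Both checkpoint kinases were highest in library 3, which held 5 of the 7 cells, and at 0 in library 2, which held none. Aurka (Aurora A) and its activator Tpx2 were each in 17 cells, with 50.6% and 56.9% of counts in the division-rich cells, and the passenger subunit Cdca8 (borealin) was in 26 cells with 62.3%.

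Birc5, which encodes survivin of the same complex (chr11:117849251-117855743 on GRCm38), had the widest gap between how many cells held it and where its counts lay. It was found in all 7 division-rich cells, at 71.3 to 1411 CPM with a median of 539, and in 27 other cells. In 26 of those 27 it had only 1 or 2 counts. The 27 cells were spread as 5, 3, 8 and 11 over libraries 1 to 4. The libraries reached 45.9, 0.371, 69.9 and 26.7 CPM, and without the division-rich cells 0.697, 0.371, 7.01 and 1.19. Detection alone thus put Birc5 above 10% of cells, and its level above a few counts was nearly limited to the 7 cells, with 1 other cell at 24 counts.

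Cell cycle control genes split in 2 ways. Ccnb2, a B-type cyclin (chr9:70407692-70421547), was found in 5, 1, 3 and 6 cells at 45.7, 0.124, 49.9 and 6.96 CPM, and the 7 cells held 96.6% of its counts. Of the 10 other cells with Ccnb2, 9 had 1 or 2 counts. Ube2c, the ubiquitin-conjugating enzyme of the anaphase-promoting complex, was in 5, 0, 1 and 6 cells at 35.6, 0, 16.4 and 15.1 CPM. Cdca3, a trigger of mitotic entry, was in 1, 0, 5 and 7 cells at 7.83, 0, 28.2 and 10.2 CPM. Each of these 3 genes had over 80% of its counts in the division-rich cells. Cdc20, the activator of the same complex, was less concentrated, with 41.6% of counts in the 7 cells and 17 other cells holding it.

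The CDK-binding subunits and Cdk1 were spread more widely. Cks1b was found in 124 cells, or 34, 22, 31 and 37 by library, and Cks2 in 82, or 22, 18, 17 and 25. Both were present in all 7 division-rich cells, which held 18% of Cks1b and 40.1% of Cks2 counts. Cdk1 was found in 59 cells, or 15, 7, 16 and 21, and in 6 of the 7. Outside the division-rich cells Cdk1 reached 32.3, 20.5, 26.7 and 44.0 CPM (30.9 ± 9.97, SD, n = 4), so no library owed its Cdk1 to those cells alone. G2e3, a ubiquitin ligase of G2 and M phase, was in 43 other cells and only 2 of the 7, which held 5.19% of its counts. Cdc25c, a phosphatase that activates CDK1, was in 3 cells in all.

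Among the 6 centromere and kinetochore genes, Cenpa and its chaperone Hjurp were spread and the outer kinetochore genes were narrow. Hjurp (chr1:88262471-88277633) was in 39, 38, 42 and 42 cells at 134, 134, 136 and 117 CPM, with library 4 the lowest. Without the 7 cells it stood at 115, 134, 116 and 117 CPM. Its median was 289.5 CPM in the division-rich cells, and 33 of the other 285 cells were above that. Cenpa, the centromeric histone H3 variant, was in 77 cells, 72 of them outside the division-rich cells. Ndc80 and Nuf2, subunits of the complex that grips microtubules, were in 18 and 11 cells, and the kinetochore proteins Cenpe and Cenpf in 20 and 17. The division-rich cells held 26.5% of Ndc80 counts, the lowest share of any narrow member.

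Spindle genes were narrow in 10 of 12 cases. Kif11, a kinesin that separates the spindle poles, was found in 4 cells and Kif2c, a kinesin that shortens microtubules, in 2, all of them division-rich. In libraries 1 to 4 Kif11 stood at 0.27, 0, 0.762 and 0.803 CPM and Kif2c at 9.45, 0, 4.19 and 0. Hmmr, a spindle protein, was in 1, 1, 1 and 2 cells at 9.58, 0.124, 11.2 and 4.28 CPM. Nusap1, which bundles microtubules, was in 3, 1, 9 and 5 cells at 31.7, 6.06, 37.5 and 5.71 CPM and was the only narrow member with a count in all 7 division-rich cells. Ckap2l, a spindle microtubule protein, was in 1, 1, 5 and 4 cells at 5.80, 0.247, 8.76 and 4.10 CPM. The remaining narrow spindle genes, Gtse1, Dlgap5, Ckap2, Psrc1 and Tacc3, had 29.4% to 47.7% of their counts in the 7 cells.

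Tubb4b, a beta-tubulin, and Ckap5, a microtubule polymerase, were the 2 spindle genes found widely. Tubb4b was in 59, 54, 50 and 50 cells at 213, 190, 177 and 227 CPM. Without the division-rich cells it stood at 183, 190, 155 and 224 CPM. The mean was 188 ± 28.3 CPM (SD, n = 4) without them and 202 ± 22.7 with them. Library 2, with no division-rich cell, could not change. Ckap5 was in 59 cells, with 15.4% of its counts in the 7.

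Cytokinesis genes held both kinds. Ect2, which activates RhoA at the division plane, was in 13 cells and anillin (Anln) in 18. Kif20b, Gas2l3 and Kif23 were in 39, 88 and 92 cells. Gas2l3, a cytoskeletal linker of the midbody, was in 22, 18, 20 and 28 cells, and only 5.35% of its counts came from the 7 cells. Its median in the division-rich cells was 2.88 CPM, below all 84 other cells with a count. Kif23, a kinesin of the central spindle, was in 87 other cells at 62.7 ± 17.3 CPM (SD, n = 4) over the cells that were not division-rich.

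Chromosome structure genes were the most widely found, with a median of 87 cells. Hmgb2, a DNA-bending chromatin protein (chr8:57511907-57515999), was in 61, 60, 54 and 60 cells at 481, 290, 621 and 329 CPM. Without the division-rich cells the libraries stood at 316, 290, 313 and 301 CPM, and the SD over libraries went from 152 to 11.6. Each division-rich cell had 1297 to 5485 CPM of Hmgb2 (median 2366). Of the 285 other cells, 5 were above the lowest of the 7 and 0 were above their median. Hmgb2 was thus both broad and highest in the 7 cells, unlike Tubb4b, for which 43 other cells were above the median of the 7.

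Anp32e, a chaperone that removes H2A.Z, was in 42, 41, 46 and 32 cells at 167, 132, 173 and 108 CPM. Smc4, a core condensin subunit, was in 33, 28, 42 and 39 cells at 162, 119, 212 and 129 CPM. Above the median of the division-rich cells lay 68 other cells for Anp32e and 19 for Smc4. The condensin I subunit Ncapd2 was in 32 cells, with 36.5% of counts in the 7. Top2a was in 10, 9, 17 and 16 cells, in all 7 division-rich cells, and 1 other cell was above their median of 560 CPM. Mki67, which encodes the chromosome coat protein Ki-67, was in 5, 3, 4 and 5 cells, and in 5 of the 7. The heterochromatin protein Cbx5 and the insulator protein Ctcf were in 106 and 87 cells, with 10.8% and 11.2% of counts in the 7 cells.

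The 3 nuclear envelope and transport genes, Tmpo, Lbr and Rangap1, lay between narrow and broad, in 59, 59 and 56 cells. Lbr, the lamin B receptor, was mostly seen at low counts: 42 of its 56 other cells had 1 or 2. For Hjurp, Tubb4b and Hmgb2 such low counts made up 17 of 154, 13 of 206 and 21 of 228 other cells.

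Low counts were also common for narrow members outside the division-rich cells. Of the 285 other cells, 116 had a count of none of the 29 narrow members, 102 of 1, 38 of 2 and 29 of 3 or more, with a maximum of 6. The values above 0 numbered 281 in these cells, and 126 of them (44.8%) were 1 or 2 counts, with a median of 4. In the 7 cells, 5 of 123 such values (4.07%) were 1 or 2 counts, with a median of 24. Over all genes and kept cells, 18.1% of values above 0 were 1 or 2 counts. The part of depth in these shares was not tested.

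Promoters of the members were read to show what letters they share. RefSeq start sites on GRCm38.p6 matched 45 of the 51 members, and the 250 bases before each start were searched on both strands for CCAAT, the box bound by NF-Y, and for TTTGAA or TTTAAA, the core of the cell cycle homology region (CHR) known from G2/M promoters. Below are the 150 bases before the start of 5 members that span the range from Ccnb2, in 15 cells, to Hmgb2, in 235. They are written 5′ to 3′ on the strand of the gene, with matches on either strand in capitals, so that ATTGG and TTCAAA are matches read from the other strand.
Ccnb2 (chr9:70421555-70421704, minus strand): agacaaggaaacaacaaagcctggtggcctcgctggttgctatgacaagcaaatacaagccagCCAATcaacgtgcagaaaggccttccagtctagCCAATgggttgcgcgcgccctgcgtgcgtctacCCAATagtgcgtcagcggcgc
Birc5 (chr11:117849087-117849236, plus strand): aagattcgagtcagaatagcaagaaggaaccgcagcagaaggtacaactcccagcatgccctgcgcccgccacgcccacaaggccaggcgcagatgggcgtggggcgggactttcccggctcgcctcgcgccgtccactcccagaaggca
Cks2 (chr13:51645082-51645231, plus strand): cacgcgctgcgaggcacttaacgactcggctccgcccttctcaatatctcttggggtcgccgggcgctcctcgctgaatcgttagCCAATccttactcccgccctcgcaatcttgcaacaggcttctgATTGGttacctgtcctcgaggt
Top2a (chr11:99024190-99024339, minus strand): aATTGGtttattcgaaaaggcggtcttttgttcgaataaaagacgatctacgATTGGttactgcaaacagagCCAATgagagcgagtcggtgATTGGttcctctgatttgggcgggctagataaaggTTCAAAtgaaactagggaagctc
Hmgb2 (chr8:57511693-57511842, plus strand): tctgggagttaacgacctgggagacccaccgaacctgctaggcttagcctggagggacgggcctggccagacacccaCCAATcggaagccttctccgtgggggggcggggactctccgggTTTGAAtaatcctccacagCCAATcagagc
The narrow Ccnb2 has 3 CCAAT boxes here and no CHR core, and Birc5 has neither. Cks2 has 2 CCAAT boxes. Top2a has 4 CCAAT boxes and 1 CHR core, and the broad Hmgb2 has 2 CCAAT boxes and 1 CHR core.

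In the 250-base windows a CHR core was found in 25 of 45 members (55.6%), against 21.2% of the 10679 genes of the table with a promoter. CCAAT was found in 34 members (75.6%), against 40.4%, and both together in 21 (46.7%), against 8.07%. By spread over cells, the CHR core was in 11 of 24 narrow members and in 3 of 4 broad members, and CCAAT in 18 of 24 and 4 of 4. A match is a description of letters and not a measured binding site.

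The 7 division-rich cells were not alike. Cell 22 of library 1 had 49 members and the highest Ccnb2 (1361 CPM), Cenpa (1664), Cks2 (1504), Ube2c (1041) and Hmgb2 (5485) of the 7, while its S phase genes, 47 genes of DNA replication fixed as a list, summed to the lowest value, 4432 CPM. The 5 cells of library 3 had 25 to 41 members and 11728 to 18669 CPM of S phase genes. Cell 64 of library 3 had the fewest members, with 0 CPM of Cdk1, Ccnb2 and Aurkb, and 14284 CPM of S phase genes. Cell 25 of library 4 had 30 members and 6065 CPM of S phase genes.

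**Figure D3:**
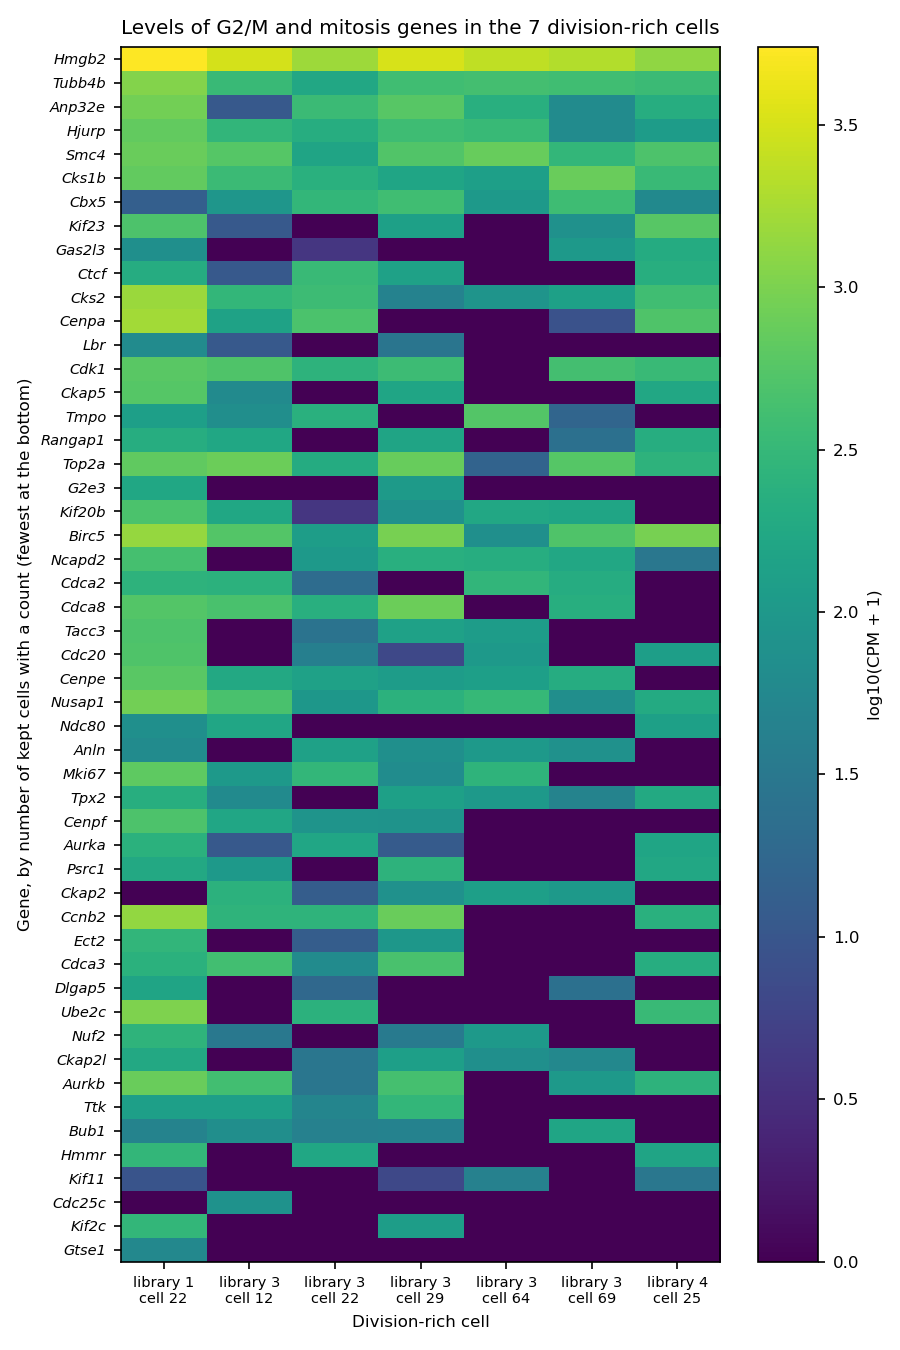
Level of each of the 51 genes (rows, fewest cells at the bottom) in each of the 7 division-rich cells (columns), coloured by log10(CPM + 1). Cell 22 of library 1 has a count for 49 genes and cell 64 of library 3 for 25, and Hmgb2 is bright in all 7.

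All 7 cells had a count for some erythroid genes of the marker list, 2 to 10 of them, against a median of 2 in the others. Klf1 was found in 2 of the 7. In cell 22 of library 3 Klf1, an erythroid transcription factor, was at 343 CPM and Car1, a carbonic anhydrase of early erythroid cells, at 3393, and in cell 25 of library 4 they were at 200 and 958. Klf1 was found in 6 of the 285 other cells. Gata1 was in these 2 cells (225 and 96.8 CPM), in cell 12 of library 3 (79.9 CPM) and in 3 of the other cells. The 10 erythroid genes of the marker list summed to 1917 to 13656 CPM in the 7 cells and 28.1 to 14268 in the others, and 5 of the 7 were above the median of the others. T and NK cell and macrophage markers were at 0 in all 7, B cell markers were present in 3 of the 7 (at most 194 CPM, against at most 932 in the others) and stromal markers in 2 (at most 77.8 CPM, against at most 764). Several stem cell and activation genes were low in the 7. Mecom, Mllt3, Ly6a (which encodes Sca-1), Fos, Jun and the D cyclin gene Ccnd2 were below the median of the other cells in all 7. Hlf was below that median in 6 of the 7, and Procr, Kit and Meis1 each in 5. For Slamf1 and Fgd5 the median of the other cells was 0. The summed HSC identity list was 2860 to 8824 CPM in the 7 cells, against a median of 12631 in the others. Cd48, excluded by the sort, was at 0 in all 7. Whether these other transcripts have a part in the member values was not tested.

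Co-detection outside the division-rich cells differed between pairs of partner genes. In the 285 other cells Ndc80 was in 15 and Nuf2 in 7, with 0 cells holding both. Birc5 was in 27 and Aurkb in 5, Tpx2 in 11 and Aurka in 12, and Ube2c in 9 and Cdc20 in 17, each with 0 cells in common. In all 292 cells the shared cells were 2, 6, 4 and 3 for these 4 pairs, so every shared cell was division-rich. Other pairs did share other cells: Birc5 and Cdca8 shared 3, Cdk1 and Ccnb2 shared 3, and Mki67 and Top2a shared 2. The condensin genes Smc4 and Ncapd2 shared 15 of the 26 other cells with Ncapd2 (57.7%), where Smc4 was in 47.4% of all 285 other cells. Pairs thus differed also in how common their genes were. Cdca8 was in 11.1% of other cells with Birc5 and 6.98% of those without, and Ccnb2 in 5.66% of those with Cdk1 and 3.02% of those without. With so few cells, an absence of overlap outside the 7 was not a detectable difference. Among wider genes, Cks1b had a count in 56.6% of other cells with Cdk1 and in 37.5% of those without, and Cdk1 in 28.9% of cells with Top2a and 16.7% of those without. Cenpa was in 27.3% of other cells with Hjurp and 22.9% of those without. Other wide pairs went the other way. Kif23 was in 28.6% of other cells with Gas2l3 and 31.3% of those without. Top2a was in 14.8% of other cells with Smc4 and 16.7% of those without. Within libraries the number of members in thinned cells had a rho of 0.34 ± 0.10 with the total before thinning, and the part of depth in these shares was not tested.

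Members rose in number only slightly with other division genes until the 7 cells. In thinned cells with 0, 1, 2 and 3 to 6 other division genes the median number of members was 6, 7, 7 and 8.5, over 115, 94, 34 and 26 cells. The median total before thinning went from 75783 to 129080 counts over all kept cells of these bins. No cell had 7 to 11, and the 7 cells with 12 or more had a median of 31.

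S phase genes showed a graded relation with the members across cells. In thinned cells the number of members and the number of S phase genes with a count had a Spearman rho of 0.33, 0.42, 0.49 and 0.42 in libraries 1 to 4, a mean of 0.41 ± 0.07 (SD, n = 4 libraries, 276 cells). Without the 7 cells it was 0.37 ± 0.05. Both numbers moved with the breadth of the cell: members and all genes detected had a rho of 0.59 ± 0.08, and 0.55 ± 0.13 without the 7. Cells of a library share its depth and pool, and no p is given.

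S phase transcripts were also found in cells with few of the narrow members. At least 20 S phase genes were detected in 13 thinned cells, the 7 division-rich cells and 6 others, in libraries 1 (2 cells), 2 (3 cells) and 4 (1 cell). These 6 cells had 7 to 14 members (median 11) after thinning, and 0 to 4 of the 29 narrow members in their counts before thinning. Cell 84 of library 2 had 33 S phase genes, as many as cell 64 of library 3, but 14 members against 25. Library 2 thus had 3 cells with 20 or more S phase genes and no division-rich cell.

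**Figure D4:**
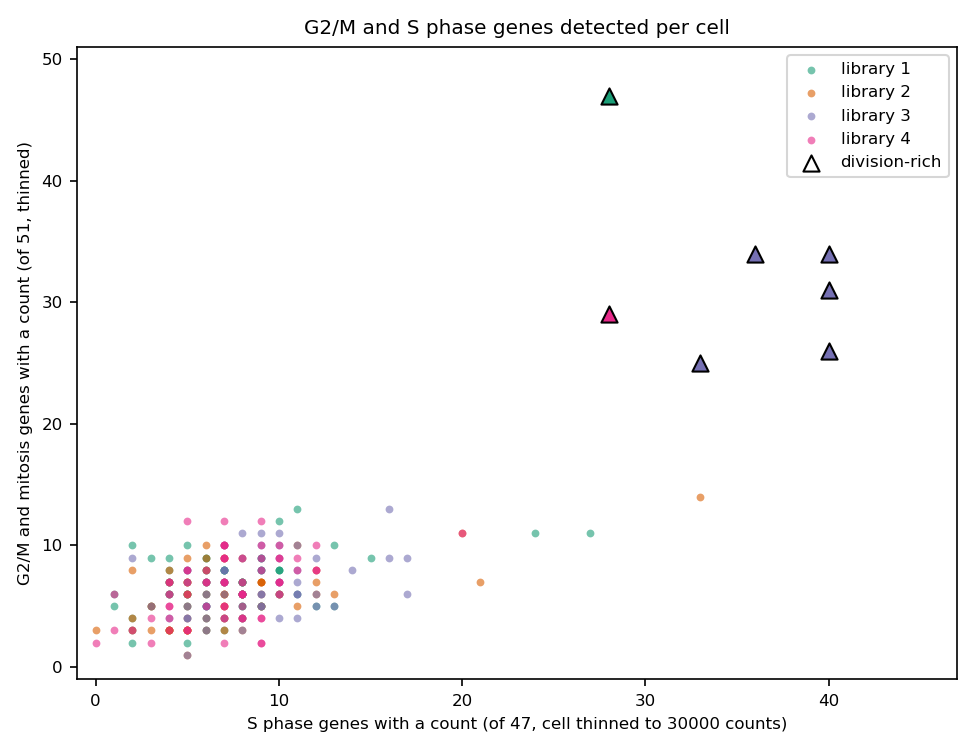
Number of S phase genes (x axis, of 47) and of G2/M and mitosis genes (y axis, of 51) with a count in each of 276 cells thinned to 30000 counts, coloured by library; triangles are the 7 division-rich cells. The triangles lie at 25 or more on the y axis, and 6 other cells with at least 20 S phase genes lie at 14 or below.

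The number of members was also set beside every other gene within libraries. Among 5285 genes found in at least 20% of cells, 27.2% had a positive rho in 4 of 4 libraries, and the median rho over all of them was 0.07. The 10 highest with 1 sign in all 4 libraries were Dtymk (0.34 ± 0.11), which makes thymidine diphosphate, Ndufb8 (0.31 ± 0.11) of respiratory complex I, Opa1 of mitochondrial fusion, the replication factors Rfc2, Mcm6 and Rpa1, Phgdh of serine synthesis, A430005L14Rik, the mitochondrial ribosomal gene Mrpl17 and the helicase gene Ddx27. They ranged down to 0.27. All 22 S phase genes looked at were positive on average, beside 83.6% of all 5285 genes, with a median of 0.15, and 16 were positive in 4 of 4 libraries. Without the 7 cells their median was 0.11, with 12 positive in 4 of 4, and the immediate early list (0.11, 18 of 18 positive) and the G1 cyclins and CDKs (0.14) had like medians. The 10 lowest were B2m (-0.41 ± 0.11), which encodes the light chain of MHC class I, Rps27, Rps14, Pfdn5, Mrpl23, Tmsb4x, Tmem176a, Tgtp1, mt-Co1 and Cnbp, up to -0.19. Without the 7 cells B2m stood at -0.38 ± 0.15 and Dtymk at 0.28 ± 0.13.

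Single members followed the rest of the list only weakly. Outside the 7 cells, the rho of Hjurp with the number of remaining members was 0.19 ± 0.11, of Cks2 0.14 ± 0.11, of Cks1b 0.10 ± 0.02 and of Hmgb2 0.02 ± 0.09, and Cbx5 stood at -0.09 ± 0.03 (SD, n = 4). Hjurp, Cks2 and Cks1b were positive and Cbx5 negative in 4 of 4 libraries, all small in size, and no test was run. The other members followed this way had both signs among the libraries. Of the 5285 genes set beside the number of members above, 1225 (23.2%) were positive and 82 negative in 4 of 4 libraries without the 7 cells. One sign in 4 of 4 libraries therefore sets no member apart from other genes.

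A test over libraries compared cells with at least 3 of the other division genes at 3 or more counts, 33 cells including the 7, with the remaining 259. Birc5 was the only member that passed, higher by 6.37 on the log2 scale (SE 0.94, adjusted p = 0.0336, edgeR's quasi-likelihood test on counts summed per library and class, n = 4 libraries). Its CPM in the class and in the rest was 283 and 0.482 in library 1, 0.942 and 0.285 in library 2, 249 and 7.70 in library 3, and 192 and 1.34 in library 4. It was higher in all 4 libraries but barely present in library 2. Of the 9584 genes tested, 0.0417% were called higher and 0.0104% lower, 4 and 1 genes. Of 40 members tested, 14 had an unadjusted p under 0.05, all higher (35%), where 221 of all genes tested were higher (2.31%) and 415 lower (4.33%) at that limit. The median member log2 difference was 1.70 against -0.39 over all genes tested. Next came Cks2 at 2.48 (SE 0.47) and Hmgb2 at 1.5 (SE 0.29), each with an edgeR adjusted p of 0.125. The class was picked by division genes in the same cells, so higher members were built into it. Some members, such as Ube2c and Cdca3 (means of 1.77 and 1.34 CPM in the rest), may have entered the test through the class. The call of Birc5, the shares and the median are therefore a description and not support.

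The other genes called were Tk1, thymidine kinase of S phase, at 6.13 (SE 0.85), Car1 at 7.85 (SE 0.84), Cenpk at 5.91 (SE 0.82) and, lower, Cd74, the MHC class II invariant chain, at -2.58 (SE 0.35). Cenpk is 1 of the genes that set the class, so its call is no result. Car1 was higher in 3 of 4 libraries, and Tk1 was higher and Cd74 lower in 4 of 4. Of 47 S phase genes 41 were tested, 1 was called and 25 had an unadjusted p under 0.05, all higher (61.0%, beside the 2.31% of all genes above), with a median difference of 1.61. S phase genes too are genes of dividing cells, so these values are also a description. Without the 7 division-rich cells edgeR called 1 gene and no member, with 546 genes at an unadjusted p under 0.05. Without library 3 it called none, with 447 genes at an unadjusted p under 0.05, and without library 1 or library 4 no member was called. Without the runs of cells that stood apart it called 4 genes and no member. Without the 2 cells with Klf1 it called none, with 555 at an unadjusted p under 0.05.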

How the data were processed

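Single HSCs were measured by a modified Smart-seq2 (STRT-seq) in 4 pooled libraries enriched for 3′ ends, per the labels' protocols. The authors deposited raw, whole-number counts for each gene in each cell. The submitters' processing notes name Trimmomatic 0.36, HISAT2 2.1.0, HTSeq 0.9.1 and GRCm38. No source used here says whether molecular identifiers were collapsed or whether counting used strand, so counts may include PCR copies. Exons of 15 members overlap another gene in GENCODE M21 (for example Nusap1 with Oip5 and Cdc20 with Elovl1), and Hmgb2, Tubb4b, Anp32e, Cks1b and Cks2 have close relatives, so their counts are less certain. CPM values are not compared between genes.

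Cells were placed in libraries by their names and kept at 10000 counts and 1000 genes. No doublet caller was run. CPM of a library came from the counts of its cells summed, and CPM of a single cell from its own counts. In the test, CPM came from counts summed per library and class. Detection means at least 1 count. The members, lists and tests were chosen with earlier results of these data known. edgeR 4.0.16 (quasi-likelihood, TMM, filterByExpr, library as a block, two-sided, Benjamini-Hochberg over all genes, threshold 0.05) was run in R 4.3.3 with DESeq2 1.42.0 as an alternative. Since the class was set from the same cells, p-values describe these cells and libraries. Tested on simulated data of this comparison over 9962 genes, it recovered 0%, 2%, 6.82% and 25.6% of changes of 1, 2, 3 and 4 on the log2 scale, with 0 false calls. The simulated libraries shared their gene means and a common dispersion, and their classes were not picked by expression. False calls from picking the class in the same cells are therefore not covered. Named with values in every library were members with the 4 highest CPM, the 12 with the largest share of counts in the class, broad members and those past the threshold. Of other genes, the 10 largest changes each way past the threshold and the 10 highest and lowest correlates were named. Any other gene was chosen after its values were seen, as were the division-rich cells and the runs. Coordinates are from GENCODE M21 and promoters from RefSeq (GRCm38.p6). Python 3.11.15 and scipy 1.17.1 were used.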

Additional observations from a re-analysis of the deposited data

Results flagged for a closer look

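For the 51 members and 4 summary values, 55 in all, the library farthest from the others was compared with Dixon's critical value for 4 samples, which chance passes in about 5% of groups. It was passed by 7 members. Library 3 was high for Bub1 (9.71 CPM, the others at most 1.48) and Cdc25c (1.71 CPM, the others at most 0.0892), and low for G2e3 (21.1 CPM). Library 1 was high for Cenpa (119 CPM, the others 64.9 to 67) and Dlgap5 (11.2 CPM, the others at most 2.22). Library 4 was low for Hjurp (117 CPM, the others 134 to 136) and Gas2l3 (47.4 CPM, the others 57.2 to 59.2). Without the division-rich cells the libraries stood at 68.3, 64.9, 36.6 and 54.2 CPM for Cenpa, so library 1 no longer stood apart, and at 115, 134, 116 and 117 for Hjurp.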

How the results depend on the processing

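The count of narrow members, 29, ranged from 27 to 35 under all alternatives. Broad members numbered 2 instead of 4 when at least 3 or at least 10 counts were asked for or cells were thinned. The class of 33 cells had 67 cells with 2 genes asked for, 10 with 5, 75 at 1 count, 20 at 10 counts and 21 when thinned. After seeing the data, 8 or 10 genes gave 7 cells, 10 genes at 1 count 7 and at 10 counts 6. Members per cell, a mean of library medians of 8, went to 6 at 3 counts and 6.75 thinned. The rho of members with S phase genes, 0.41, was 0.34 at 3 counts, 0.51 unthinned and 0.34 without the class.

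The test depended on its settings. Of 5 genes called, with 1 member, DESeq2 called 229 with 9 members, no filter on low counts 34 with 5, 2 genes asked for 3 with 0, 5 genes 69 with 12, at least 10 counts 8 with 1, thinned counts 11 with 1, and at least 1 count 0 with 0 (edgeR, 487 genes at an unadjusted p under 0.05). The setting with 5 genes asked for ran on 3 libraries, since library 2 had 1 cell of that class. The test on thinned counts kept the class set before thinning, 9, 6, 11 and 7 cells of libraries 1 to 4. With no replicate block on library edgeR called 0 genes and 0 members (698 at an unadjusted p under 0.05). Leaving out each library in turn gave 0 to 9 genes and 0 to 4 members. Chosen after seeing the data, leaving out the division-rich cells gave 1 gene and 0 members, the runs 4 and 0, and the 2 cells with Klf1 0 and 0. Counting error at this depth limits all values of 1 or 2 counts.

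Of 44 single genes followed, 16 members changed sign under at least 1 setting, none of them called in the test as reported. Their log2 differences there were -0.22 for G2e3, -0.33 for Ctcf, -0.22 for Tmpo, -0.53 for Lbr, -0.09 for Kif23, 0.62 for Gas2l3, -0.60 for Cdca2, 0.42 for Rangap1, 1.64 for Tacc3, 0.51 for Ckap5, 1.51 for Mki67, 2.71 for Cdca8, 0.89 for Cenpa, 2.35 for Cenpf, 1.88 for Ect2 and 2.09 for Top2a. With 2 genes asked for, G2e3 was at 0.43, Ctcf at 0.82, Tmpo at 0.11 and Lbr at 0.20. With 5 genes asked for, over 3 libraries, Kif23 was at 1.505, Gas2l3 at -0.24, Cdca2 at 1.97, Ctcf at 1.09 and Tmpo at 0.48. At 1 count Tmpo was at 0.32, Lbr at 0.24 and Rangap1 at -0.084. At 10 counts Tacc3 was at -0.31, Kif23 at 0.13 and Ctcf at 0.023. With thinned counts Cdca2 was at 0.34 and Rangap1 at -0.30. With no replicate block G2e3 was at 0.43, Kif23 at 0.26, Cdca2 at 1.41, Tmpo at 0.58 and Lbr at 0.20. Without the division-rich cells Cdca8 was at -1.51, Cenpa at -3.49, Cenpf at -2.20, Ckap5 at -1.5, Ect2 at -3.79, Top2a at -1.999, Mki67 at -2.10 and Rangap1 at -0.22. Without the 2 cells with Klf1, Cenpa was at -1.39. Leaving out each library in turn, Ckap5 ranged from -0.31 to 1.25, Mki67 from -1.83 to 4.12, Kif23 from -0.50 to 0.38, Cdca2 from -2.87 to 1.14, Ctcf from -0.85 to 0.032, Tmpo from -1.45 to 0.90, Lbr from -1.28 to 0.30, Rangap1 from -0.28 to 1.31 and G2e3 from -1.22 to 0.79. The causes were not tested.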
